A study of Mus musculus with 12 samples.

Results

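Mediator is the multi-subunit co-activator that carries signals from DNA-bound transcription factors to RNA polymerase II, and its 33 genes in the mouse were followed here through lung tumours, the lung beside them and sorted alveolar type 2 (AT2) cells. The members were taken by gene symbol, matched through GENCODE M21 to the Ensembl identifiers of the deposited tables: the genes named Med with a number, the paralogues Med12l and Med13l, the kinases Cdk8 and Cdk19, and their cyclin Ccnc. All 33 stood in both tables, among 56262 identifiers in the lung table and 54532 in the AT2 table. The study asked what kind of tumour arises spontaneously in mice whose T cells lack Med23, and what their AT2 cells look like before tumours form. All animals were C57BL/6 mice. Mice 102, 217 and 224, aged 18 months and all with the T cell knockout of Med23, each gave a lung tumour and a piece of adjacent lung, so the adjacent lung is no wild-type tissue. AT2 cells, the surfactant-making cells of the alveolus, were isolated by FACS at 6 months of age from 3 mice with the knockout in T cells (175, 179 and 191) and 3 WT mice (176, 177 and 190). The sources used here do not give the promoter that drove the deletion or the breeding of the WT mice. Each library is called by its group and mouse number.

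Mediator is built of modules. The head and the middle contact the polymerase, the tail receives most activators, the large subunit Med14 runs through all 3 as a scaffold, and a detachable kinase module of Cdk8 or Cdk19, cyclin C (Ccnc), Med12 or Med12l and Med13 or Med13l sits on the middle and holds the polymerase off. Med23 is a tail subunit known as the contact of the ETS factor Elk1, which relays mitogen signals. Med12l, Med13l and Cdk19 are vertebrate paralogues of Med12, Med13 and Cdk8. Members were grouped here as head (Med6, Med8, Med11, Med17, Med18, Med20, Med22), middle (Med1, Med4, Med7, Med9, Med10, Med19, Med21, Med26, Med31), scaffold (Med14), tail (Med15, Med16, Med23, Med24, Med25 and Med27 to Med30) and kinase module. Med27 to Med30 lie where head and tail meet, and other classifications place some of them in the head.

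The lung libraries held 65163100 to 77951014 counts and the AT2 libraries 15943084 to 18913242, and the tables were scaled and tested separately. A level is given as CPM, a gene's counts over its library's TMM-scaled total, or as RPKM, the CPM per kilobase of exon, where genes are set side by side. The 8 AT2 markers, led by surfactant genes, summed to 73850 to 227900 CPM in tumours and 21500 to 42700 CPM in adjacent lung. They summed to 141700 to 144400 CPM in AT2 KO and 142300 to 179600 CPM in AT2 WT cells, so the labelled cell type was present in both sorted groups. Markers of AT1 cells summed there to 1397 to 1479 CPM (KO) and 1407 to 1855 CPM (WT). Those of club cells summed to 564.2 to 726 CPM (KO) and 506.7 to 647.7 CPM (WT). The 12 T cell markers summed to 12.6 to 62.3 CPM in tumours and 55.0 to 194 CPM in adjacent lung, and to 2.41 to 4.15 CPM in AT2 KO and 0.917 to 3.59 CPM in AT2 WT cells.

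Med23 itself, the targeted gene (chr10:24869986-24913681, plus strand, GRCm38), stood at 25.9, 18.3 and 36.8 CPM in the tumours of mice 102, 217 and 224, against 29.8, 21.0 and 31.5 CPM in their adjacent lung. The groups overlapped, and edgeR's quasi-likelihood test gave a log2 fold change of −0.02 ± 0.36 (standard error) with an adjusted p of 0.982. In AT2 KO cells Med23 had 42.1, 45.7 and 46.5 CPM (mice 175, 179 and 191), against 40.1, 34.4 and 46.4 CPM in AT2 WT cells (176, 177 and 190). These groups overlapped too, at 0.15 ± 0.15 with an adjusted p of 0.984. Since the deletion was made in T cells, whose markers summed to at most 194 CPM in any library, the Med23 level does not check the genotype labels.

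Some libraries stood apart in a way that followed the length of the members. Each library of mouse 217 was set against the mean of the other 2 libraries of its group. In tumour 217 the log2 ratio fell with exon length across the 33 members (Spearman's rho −0.618), with a median of −0.52 over the 10 members of at least 7000 exon bases and 0.56 over the 8 members under 2500. In adjacent lung 217 rho was −0.754, with medians of −0.75 and 0.48 over the same members. AT2 WT 177 did likewise over 31 members (rho −0.525), with medians of −0.42 for 9 long members and 0.23 for 8 short ones. Med13l, the longest member at 15427 exon bases, was thus at log2 ratios of −2.07 in tumour 217, −1.36 in adjacent lung 217 and −0.86 in AT2 WT 177. Cdk8, with 9832 exon bases, went against the trend in tumour 217 at 0.55. Set against the mean of all 6 libraries of its table, adjacent lung 224 went the other way (rho 0.676 across the members), and so did AT2 WT 190 (0.696), where tumour 217 had −0.586, adjacent lung 217 −0.551 and AT2 WT 177 −0.523. Over all genes tested, the same measure was −0.273 in tumour 217, −0.24 in adjacent lung 217 and −0.225 in AT2 WT 177, and 0.109 in adjacent lung 224 and 0.328 in AT2 WT 190. In the other lung libraries it was 0.101 to 0.257 over all genes, highest in adjacent lung 102, and 0.0836 to 0.461 across the members. The AT2 KO libraries had 0.111 to 0.174 over all genes and 0.0927 to 0.458 across the members. AT2 WT 176 had −0.171 and −0.141. Members share these libraries, so the correlations carry no test. The libraries of mouse 217 are in both lung groups, whereas AT2 WT 177 is in 1 group only.

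**Figure D1:**
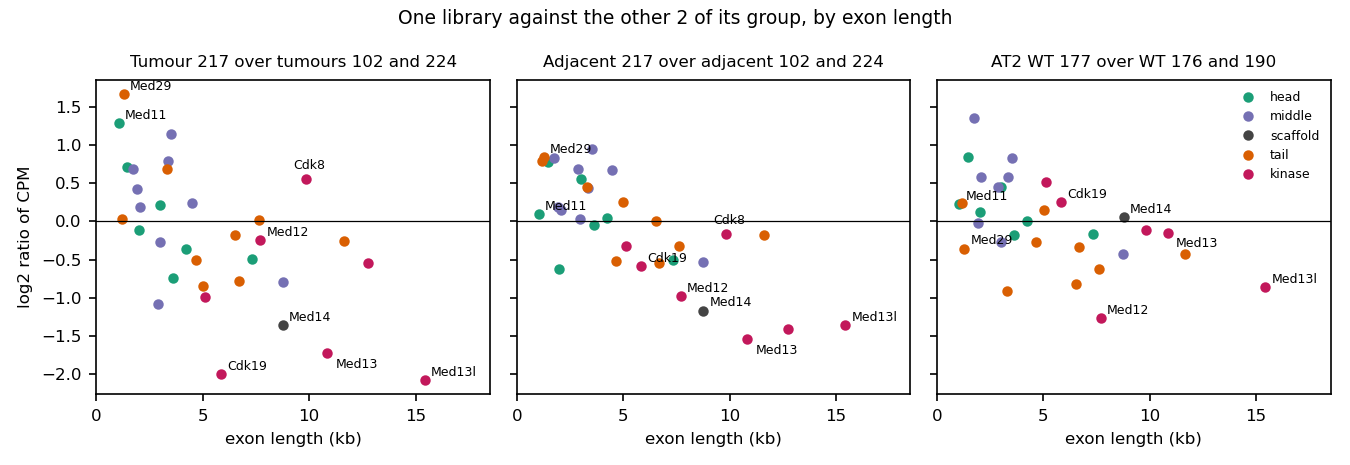
Log2 ratio of the CPM in 1 library to the mean CPM of the other 2 libraries of its group (y axis) against the exon length of each Mediator gene in kilobases (x axis), for tumour 217, adjacent lung 217 and AT2 WT 177, with points coloured by module. Long members such as Med13, Med13l and Med14 lie below 0 in tumour 217 and adjacent lung 217, and short members such as Med29 and Med11 lie above 0 there.

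Per exon length, 21 of the 33 members had 1 to 10 RPKM on average in tumours, 11 were above 10 RPKM and 1, Med12l, was below 1 RPKM. In adjacent lung 23 lay between 1 and 10 RPKM, 9 above and 1 below. The median member had 6.51 RPKM in tumours and 5.96 RPKM in adjacent lung, and 6.52 RPKM in AT2 KO and 6.02 RPKM in AT2 WT cells. In AT2 cells, 2 members were below 1 RPKM in both groups, Med12l and Med10.

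The 4 members highest over the lung libraries were Med22 and Med11 of the head, Med30 of the tail and Med9 of the middle. Med22 had 35.7, 21.5 and 36.0 RPKM in tumours 102, 217 and 224, against 13.3, 14.2 and 16.01 RPKM in adjacent lung. Med11, which pairs with Med22 in the head, had 18.0, 44.8 and 18.8 RPKM in tumours and 16.1, 17.3 and 16.3 RPKM in adjacent lung. The values of Med11 were close together apart from tumour 217, which was above every other lung library. Med30, a subunit with no yeast counterpart, had 24.8, 19.8 and 13.9 RPKM in tumours and 15.4, 23.8 and 12.2 RPKM in adjacent lung. Med9 had 18.4, 23.0 and 15.8 RPKM in tumours and 15.6, 17.1 and 14.4 RPKM in adjacent lung. Both of these overlapped between the groups, and in tumours the ranges of the 4 members overlapped one another.

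The 4 lowest in lung were Med12l, Med18, Med27 and Med14. Med18, a head subunit that forms a movable jaw with Med20, had 3.17, 2.38 and 2.01 RPKM in tumours and 2.08, 1.55 and 2.71 RPKM in adjacent lung. Med27 had 2.49, 3.74 and 2.17 RPKM in tumours and 3.80, 4.39 and 2.60 RPKM in adjacent lung. Med14 had 5.53, 1.78 and 3.61 RPKM in tumours and 4.82, 1.76 and 3.08 RPKM in adjacent lung. For Med14, mouse 102 was highest and mouse 217 lowest in both tissues. Med12l was lower than any of these, at 0.0367, 0.0200 and 0.0217 RPKM in tumours and 0.299, 0.0891 and 0.172 RPKM in adjacent lung.

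In AT2 cells the 4 highest were Med8, Med22, Med11 and Med9. Med8, a head subunit that anchors the jaw, had 21.9, 22.0 and 20.6 RPKM in AT2 KO cells (175, 179 and 191) and 23.6, 28.2 and 17.5 RPKM in AT2 WT cells (176, 177 and 190). Med22 had 17.3, 16.7 and 16.8 RPKM in AT2 KO and 19.2, 15.6 and 16.2 RPKM in AT2 WT cells. Med11 lay between 10.2 and 16.3 RPKM and Med9 between 11.6 and 13.7 RPKM over the 6 libraries. All 4 overlapped between the groups. Below them, Med20 had 1.29, 1.57 and 2.15 RPKM in AT2 KO and 1.65, 1.58 and 1.91 RPKM in AT2 WT cells. Med18 had 2.37, 2.34 and 2.38 RPKM in AT2 KO and 1.41, 1.78 and 1.87 RPKM in AT2 WT cells.

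The order of the 33 members by RPKM was more alike within each table (Spearman's rho across members 0.895 between tumour and adjacent lung and 0.969 between AT2 KO and AT2 WT) than across them, where the 4 pairs of a lung and an AT2 group gave 0.643 to 0.718, and 0.647 to 0.742 over 32 members without Med10. These values share each gene's length and, within a table, its gene list, and are given as a description. With the longest protein-coding transcript in place of all exons of a gene, the order correlated with the one above at 0.725 in lung and 0.782 in AT2 cells. The 4 highest were then Med21, Med10, Med11 and Med25 in lung and Cdk8, Med8, Med25 and Med22 in AT2 cells, so the place of a single member in the order rests on which exons are counted as its length.

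**Figure D2:**
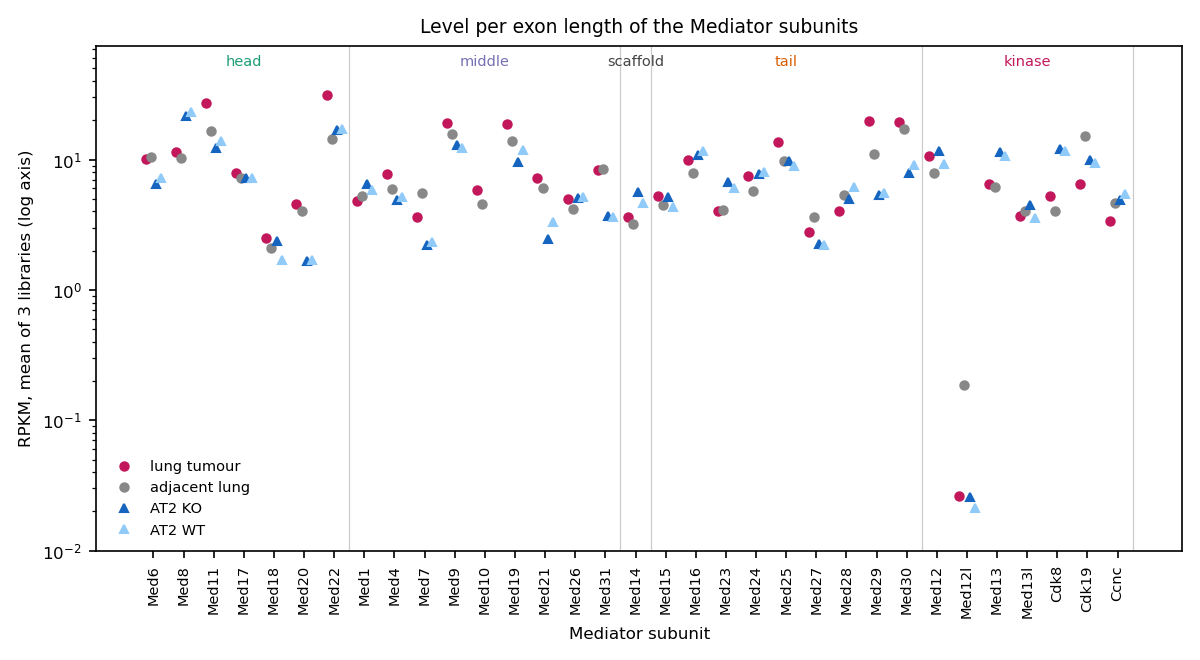
Mean RPKM of 3 libraries per group (log axis) for the 33 Mediator genes, ordered by module, in lung tumour, adjacent lung, AT2 KO and AT2 WT cells. All but Med12l lie above 1 RPKM wherever they are drawn. Med10 had 0 counts in all 6 AT2 libraries and so has no AT2 symbol on the log axis.

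The first comparison, lung tumour against adjacent lung, moved 1 Mediator gene past the threshold. Med12l fell in tumours, and none of the 33 members rose. With the mouse as a replicate block 2 members passed, Med12l lower and Med22 higher (6.06% of members, against 14.9% of all genes in either direction). Of all 19995 genes tested, 2.86% were called higher and 7.18% lower at an adjusted p of 0.05, against 0 of 33 members higher (0.0%) and 1 of 33 lower (3.03%). At an unadjusted p of 0.05, 2 members were called (6.06%), Med12l and Med22, against 24.0% of all genes. The median member had a log2 fold change of 0.19, against 0.04 over all genes tested, with 22 members positive and 11 negative. That balance depended on the scaling: with library totals alone in place of TMM the median of all genes shifted by −0.22, and 14 members were positive and 19 negative. For 7 members the 95% interval of the log2 fold change lay within −1 and 1, so for the rest a change of 2-fold or more in 1 direction was not outside the interval.

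Within the mice, 18 of 33 members were higher in the tumour than in the adjacent lung of mouse 102, 18 in mouse 217 and 28 in mouse 224. In all 3 mice 13 members were higher (39.4%, against 28.2% of all genes tested), 3 were lower (9.09%, against 29.3%) and 17 went both ways. The 3 that were lower in every mouse were Med27, Med12l and Cdk19. The 13 were Med11 and Med22 of the head, Med4, Med9, Med10 and Med19 of the middle, Med14, the tail members Med15, Med16, Med24, Med25 and Med29, and Cdk8. Some of these differences were small, such as log2 ratios of 0.02 for Med14 in mouse 217 and 0.05 for Cdk8 in mouse 224. The directions rest on TMM scaling, on which the balance of signs above depended, and were not counted with library totals.

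In the kinase module, Med12l is a paralogue of Med12 and can take its place beside the kinase. It stood at 0.469, 0.255 and 0.277 CPM in tumours 102, 217 and 224, against 3.82, 1.14 and 2.20 CPM in adjacent lung. Every tumour was below every adjacent lung. The log2 fold change was −2.83 ± 0.71, with an adjusted p of 0.0447 by edgeR's quasi-likelihood test. The call was close to the threshold: leaving out any 1 of the 6 libraries took it away, with adjusted p from 0.0637 to 0.155 and log2 fold changes of −3.18 to −2.28. Of 9 other settings it passed in 6, among them the replicate block by mouse (−2.72 ± 0.53, adjusted p = 0.0339). It missed with limma-voom (adjusted p = 0.0726), with no filter on low counts (0.0630) and without both libraries of mouse 217 (0.0871).

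The Med12l gene (chr3:59005825-59318682, plus strand, GRCm38) spans other genes, and the library kit does not mark strand. Its exons share 1948 bases with exons of Igsf10, a gene on the opposite strand, and 9 bases with P2ry12, a purinergic receptor gene. The neighbours were looked at after the values of Med12l had been seen. Igsf10 had 1.90, 4.49 and 2.81 CPM in tumours and 22.7, 17.2 and 16.1 CPM in adjacent lung, and fell by 2.60 ± 0.44 on the log2 scale (adjusted p = 0.0152). P2ry12 had 1.61, 1.40 and 1.283 CPM in tumours and 3.24, 4.63 and 4.52 CPM in adjacent lung, with a log2 fold change of −1.53 ± 0.47 that did not pass (adjusted p = 0.0840). The sources used here do not say how reads in shared exons were assigned, and the part of these neighbours in the Med12l counts was not tested.

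Cell types of the lung also moved with the comparison. All 7 endothelial markers fell in tumours, with a sum of 630.7 to 680.1 CPM in tumours and 2885 to 4483 CPM in adjacent lung. Of the other lists, 5 of 6 ciliated, 2 of 3 club, 2 of 4 smooth muscle and 2 of 12 T cell markers fell. So did 1 of 4 B cell, 1 of 4 neutrophil and 1 of 5 AT1 markers. None of the 7 macrophage, 5 fibroblast and 6 proliferation markers passed, and 2 of 8 AT2 markers rose. Of all genes tested, 7.18% were called lower and 2.86% higher. These calls are from the fit without the mouse as a replicate block. With the block 14.9% of all genes passed in either direction. A marker that did not pass here is therefore not shown to be unchanged. By sign alone, every ciliated, club, smooth muscle, T cell, B cell, neutrophil and macrophage marker was negative. So were 4 of 5 AT1 and 4 of 5 fibroblast markers, while every AT2 and proliferation marker was positive. In whole tissue, fewer cells of a type and less RNA per cell cannot be told apart. The part of these cell types in the fall of Med12l was not tested. In the sorted AT2 cells Med12l was at 0.526, 0.275 and 0.181 CPM in AT2 KO and 0.647, 0 and 0.172 CPM in AT2 WT cells. These levels rest on 9, 5 and 3 counts in AT2 KO and 11, 0 and 3 counts in AT2 WT libraries. Med12l did not pass the filter on low counts there, and the tables were scaled separately. No comparison with the tumour values was drawn from them.

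The promoter of Med12l is printed with those of its paralogue Med12 and of Med22, the member with the largest positive fold change in tumours, so that the start of the member that passed can be read beside those of 2 members that did not. Each is the first window that the table lists for the gene, 250 bases before and 50 after a start given by RefSeq on GRCm38.p6, 5′ to 3′ on the gene's strand, with GGGCGG (the GC box) or its reverse complement in capitals. RefSeq and GENCODE place these starts differently, and the window of Med12l lies inside the GENCODE gene.
Med12l, chr3:59006728-59007027, plus strand: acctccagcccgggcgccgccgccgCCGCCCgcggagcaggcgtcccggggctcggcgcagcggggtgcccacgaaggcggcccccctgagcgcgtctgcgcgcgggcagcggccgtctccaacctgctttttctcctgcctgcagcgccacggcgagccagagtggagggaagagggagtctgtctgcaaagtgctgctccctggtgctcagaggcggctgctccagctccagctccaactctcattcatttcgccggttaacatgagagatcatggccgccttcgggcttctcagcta
Med12, chrX:101273841-101274140, plus strand: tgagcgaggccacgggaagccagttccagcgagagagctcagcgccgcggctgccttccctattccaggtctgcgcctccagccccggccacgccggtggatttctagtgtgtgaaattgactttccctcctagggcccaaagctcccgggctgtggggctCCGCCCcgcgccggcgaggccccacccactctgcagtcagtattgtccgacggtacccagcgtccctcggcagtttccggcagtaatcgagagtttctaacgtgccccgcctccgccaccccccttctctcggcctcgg
Med22, chr2:26910593-26910892, minus strand: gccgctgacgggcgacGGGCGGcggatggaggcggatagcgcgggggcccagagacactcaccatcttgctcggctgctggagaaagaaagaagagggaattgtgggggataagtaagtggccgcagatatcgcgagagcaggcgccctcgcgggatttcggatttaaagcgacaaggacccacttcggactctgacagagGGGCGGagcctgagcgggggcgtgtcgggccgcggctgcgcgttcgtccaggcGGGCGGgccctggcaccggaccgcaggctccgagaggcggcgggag
All 3 windows are rich in G and C, at 69.0% for Med12l, 66.3% for Med12 and 68.0% for Med22, and each holds at least 1 GC box.

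Promoter windows were found for 28 of the 33 members, not for Med8, Med23, Med24, Med30 and Cdk19. Their median G and C content was 57.8%, against 57.0% over 16522 protein-coding genes. Searched on both strands, GGGCGG was in 18 of 28 member windows (64.3%, against 48.0% of all), TGACG in 12 (42.9%, against 24.4%), CCAAT in 11 (39.3%, against 38.7%), CACGTG in 4 (14.3%, against 8.1%) and TATAAA in 3 (10.7%, against 12.9%). CCGGAAG, a core that ETS factors bind, was in 7 (25%, against 12.3%): Med4, Med6, Med14, Med15, Med17, Med18 and Med19. In tumours the log2 fold changes of these 7 ran from −0.05 to 0.42 and none passed. The matches are a description of letters, with no test of the shares.

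Cdk19, the kinase that replaces Cdk8 in some Mediator complexes, had 61.6, 12.7 and 39.7 CPM in tumours and 125.1, 66.1 and 73.0 CPM in adjacent lung. Every tumour was below every adjacent lung, with tumour 217 lowest. Its log2 fold change of −1.21 ± 0.57 did not pass (adjusted p = 0.248), nor did −1.42 ± 0.36 with the mouse as a replicate block (adjusted p = 0.0610). Cdk8 had 39.2, 65.7 and 50.6 CPM in tumours and 33.5, 36.6 and 48.8 CPM in adjacent lung, with overlapping groups and a log2 fold change of 0.39 ± 0.32 (adjusted p = 0.546). The other members of the module overlapped. Med12, which activates the kinase through cyclin C, had 59.8, 73.3 and 114.4 CPM in tumours and 63.8, 37.0 and 81.6 CPM in adjacent lung (0.44 ± 0.40, adjusted p = 0.589).

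Med13, which ties the kinase module to the rest of Mediator, had 114.6, 27.8 and 69.3 CPM in tumours and 120.5, 29.5 and 51.5 CPM in adjacent lung. Its paralogue Med13l had 90.7, 18.0 and 61.1 CPM in tumours and 101.4, 30.4 and 55.0 CPM in adjacent lung. Both followed the mouse: mouse 102 was highest and mouse 217 lowest in either tissue. The log2 fold changes were 0.07 ± 0.64 for Med13 and −0.14 ± 0.63 for Med13l, the widest errors of the module after Med12l. Ccnc had 21.6, 10.5 and 20.1 CPM in tumours and 32.5, 20.4 and 18.7 CPM in adjacent lung (−0.46 ± 0.40, adjusted p = 0.57). Summed over its 7 members the module had 388, 208.3 and 355.5 CPM in tumours and 480.6, 221.2 and 330.8 CPM in adjacent lung, so the sums overlapped.

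The head held the largest positive fold change. Med22 (chr2:26905262-26910677, minus strand, GRCm38) had 128.9, 77.6 and 130.0 CPM in tumours and 48.0, 51.4 and 57.9 CPM in adjacent lung, without overlap. The log2 fold change was 1.10 ± 0.31, and the adjusted p of 0.0677 missed the threshold. Med22 passed with the mouse as a replicate block (1.06 ± 0.22, adjusted p = 0.0411, where 14.9% of all genes passed in either direction), with DESeq2 (adjusted p = 0.0440), with the exon length offset (0.0455) and without tumour 217 (0.0483). In all it passed in 4 of the 9 other settings and 1 of the 6 fits without 1 library, and its log2 fold change was positive in each of these, from 0.90 to 1.23.

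Med11 had 18.8, 46.9 and 19.7 CPM in tumours and 16.9, 18.1 and 17.1 CPM in adjacent lung. The groups did not overlap, and tumour 217 stood far above the rest. Its log2 fold change of 0.71 ± 0.42 did not pass (adjusted p = 0.365), and without 1 library it ranged from 0.08 to 0.93. The other 5 head members (Med6, Med8, Med17, Med18 and Med20) had log2 fold changes between −0.05 and 0.25 and overlapped. The head summed to 241.4 to 290.4 CPM in tumours and 170.8 to 187.3 CPM in adjacent lung, without overlap after TMM scaling but with overlap after scaling by library totals alone (194.6 to 294.6 CPM in tumours and 185.2 to 211.0 CPM in adjacent lung). Med22 made up most of that difference of means: 261.9 ± 25.5 CPM in tumours and 180.3 ± 8.54 CPM in adjacent lung (SD, n = 3 each) for the head, and 112.1 ± 30.0 CPM in tumours and 52.4 ± 5.01 CPM in adjacent lung for Med22.

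In the middle, Med1, the subunit that nuclear receptors contact, had 45.6, 28.2 and 52.1 CPM in tumours and 55.4, 35.4 and 46.9 CPM in adjacent lung, with overlap (−0.13 ± 0.34, adjusted p = 0.878). Med19 had 40.3, 41.9 and 33.2 CPM in tumours and 31.2, 30.7 and 24.2 CPM in adjacent lung. It was the only middle member whose groups did not overlap, and its log2 fold change of 0.42 ± 0.28 did not pass (adjusted p = 0.428). The lowest of the module was Med7, a part of the hinge between head and middle with Med21, at −0.62 ± 0.42 (adjusted p = 0.446) with overlapping groups. The module's 9 members ranged from −0.62 to 0.42 with a median of 0.24, 6 of them positive, and none passed.

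Med14, the scaffold, had 48.5, 15.6 and 31.6 CPM in tumours and 42.3, 15.4 and 27.0 CPM in adjacent lung (0.18 ± 0.51, adjusted p = 0.888), again with mouse 102 high and mouse 217 low in both tissues. In the tail, Med29 had the largest difference, with 15.1, 46.3 and 14.2 CPM in tumours and 13.01, 20 and 9.22 CPM in adjacent lung. Tumour 217 was far above the others and the groups overlapped. The log2 fold change of 0.84 ± 0.55 did not pass (adjusted p = 0.43), and without tumour 217 it was −0.02. Med24, a tail subunit that associates with Med23, had 45.1, 44.8 and 56.2 CPM in tumours and 31.8, 37.6 and 43.4 CPM in adjacent lung, without overlap (0.37 ± 0.28, adjusted p = 0.499). The tail's 9 members ranged from −0.41 (Med28) to 0.84 with a median of 0.21, and none passed.

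In all, groups did not overlap for 6 members in lung. The 4 that were higher in tumours, Med11, Med22, Med19 and Med24, are 12.1% of the members, against 11.6% of all genes tested. The 2 that were lower, Med12l and Cdk19, are 6.06%, against 18.9%. The share of members that were higher without overlap was thus close to that of all genes, and no statement on the complex as a whole rests on it.

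**Figure D3:**
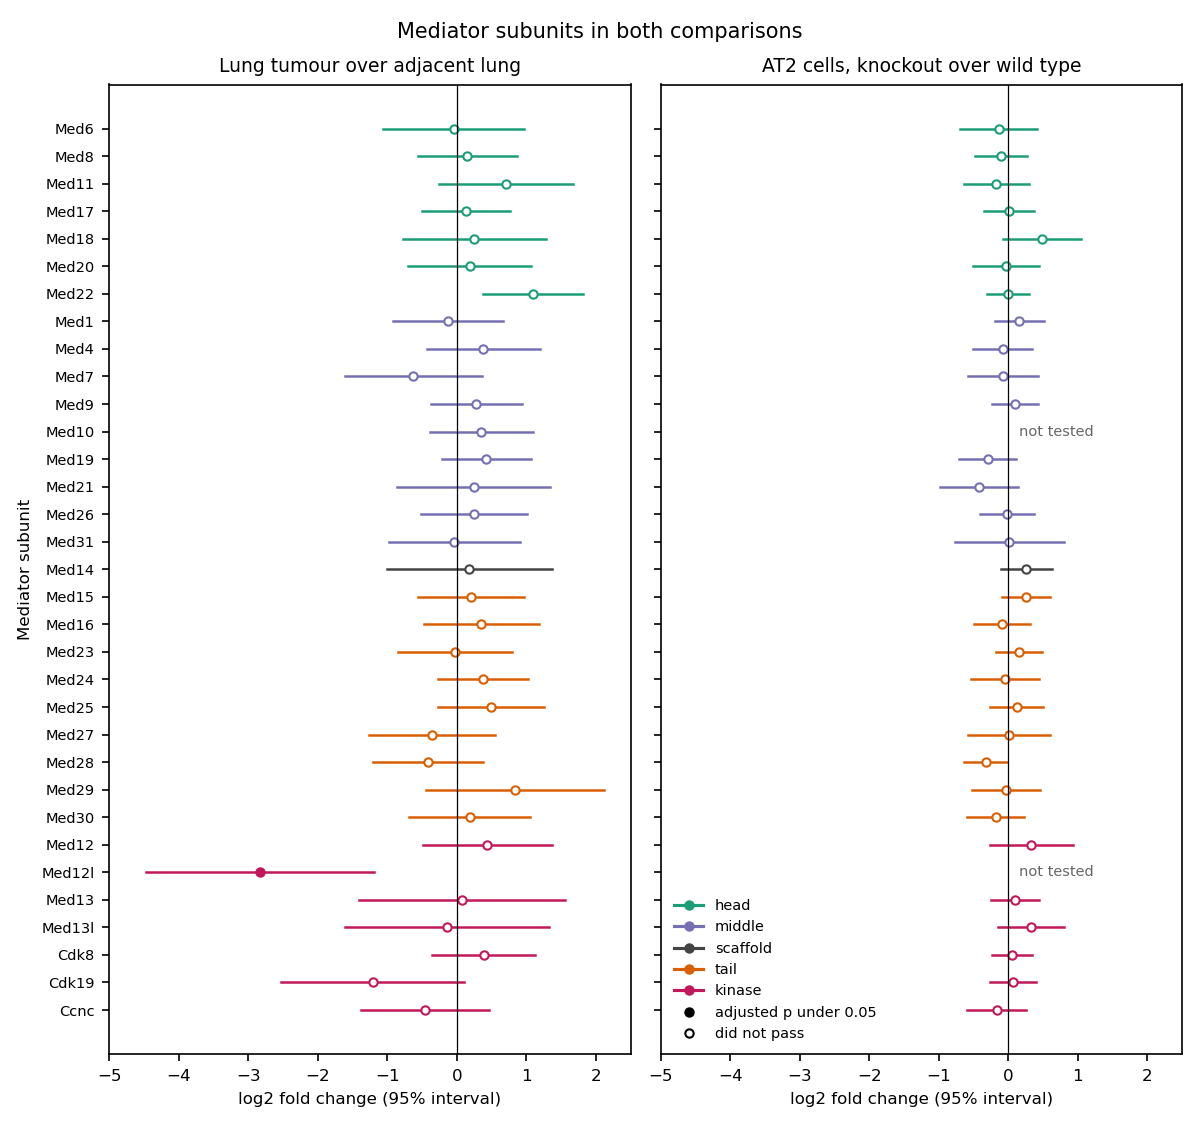
Log2 fold change of each Mediator gene with its 95% interval, for lung tumour over adjacent lung (left) and AT2 KO over AT2 WT (right), coloured by module; filled points passed an adjusted p of 0.05 and open points did not. Med12l at −2.83 is the only filled point, and the AT2 intervals are narrower than those of the lung.

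**Figure D4:**
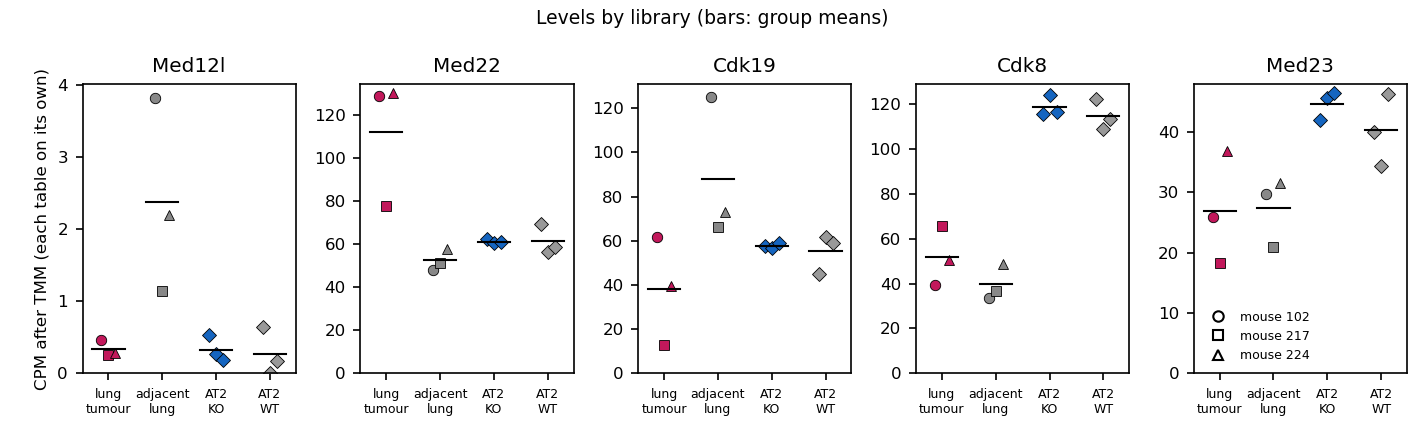
CPM of 5 Mediator genes in each library (y axis from 0; marker shape gives the mouse for lung; bars are means of 3 libraries) in lung tumour, adjacent lung, AT2 KO and AT2 WT. The tumours lie below adjacent lung for Med12l and Cdk19 and above it for Med22, and the groups overlap for Cdk8 and Med23.

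The paralogues of the kinase module were also compared within each library, where the scaling cancels, as the log2 ratio of their RPKM. Med12 exceeded Med12l in every library. In lung the log2 ratio was 7.72, 8.90 and 9.42 in tumours 102, 217 and 224 and 4.79, 5.75 and 5.95 in adjacent lung. The ratios did not overlap, and the difference of 3.18 between the means of 8.68 ± 0.87 in tumours and 5.50 ± 0.62 in adjacent lung (SD, n = 3 each) reached p = 0.1 in an exact two-sided permutation test, the smallest p that 3 against 3 can give (0.2 adjusted over the 3 pairs).

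The log2 ratio of Cdk8 to Cdk19 was −1.40, 1.63 and −0.40 in tumours and −2.65, −1.60 and −1.33 in adjacent lung. Which kinase was the higher rests on the length used: with all exons Cdk8 was above Cdk19 in 1 of the 6 lung libraries, tumour 217, and with the longest protein-coding transcript of each gene in 5 of 6, all but adjacent lung 102. Differences between groups do not depend on that length. The means were −0.06 ± 1.54 in tumours and −1.86 ± 0.70 in adjacent lung (SD, n = 3 each), a difference of 1.80 with an exact permutation p of 0.2, and the difference was 0.96 without tumour 217. Within each mouse the ratio was higher in the tumour, which an exact sign-flip test over 3 mice can show at p = 0.25 at best. For Med13 over Med13l the log2 ratio was 0.85, 1.14 and 0.69 in tumours and 0.76, 0.47 and 0.41 in adjacent lung, a difference of 0.35 with overlapping groups (exact permutation p = 0.2). Which of these 2 was the higher also rests on the length used. Med13 was above Med13l in 6 of 6 lung libraries with all exons and in 3 of 6 with the longest protein-coding transcript. Within each mouse this ratio too was higher in the tumour, as was that of Med12 to Med12l, at the same smallest p of 0.25. A ratio shows that the members of a pair changed unequally, not which of them changed.

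In AT2 cells Cdk8 was above Cdk19 in all 6 libraries, with log2 ratios of 0.26, 0.38 and 0.23 in AT2 KO and 0.70, 0.07 and 0.19 in AT2 WT cells. The difference was −0.03 with an exact permutation p of 1. Med13 over Med13l was 1.35, 1.31 and 1.42 in AT2 KO and 1.36, 2.12 and 1.45 in AT2 WT cells (difference −0.29, exact permutation p = 0.2), with WT 177 apart. Med12 over Med12l, with 0.5 counts added, was 8.10, 8.91 and 9.41 in AT2 KO and 7.60, 11.04 and 9.64 in AT2 WT cells. Med12l had only 9, 5 and 3 counts in the AT2 KO and 11, 0 and 3 counts in the AT2 WT libraries, so the value of WT 177 is set by the 0.5 counts added. The difference of −0.62 lay between −1.53 and 0.19 without 1 library, and no comparison was drawn from this pair.

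**Figure D5:**
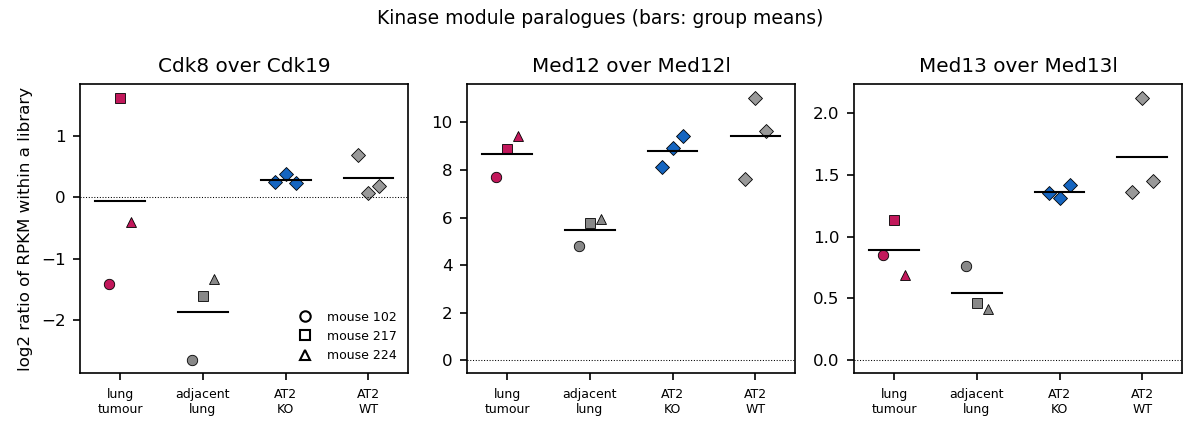
Log2 ratio of RPKM within each library for 3 paralogue pairs of the kinase module (bars are means of 3 libraries; marker shape gives the mouse for lung) in lung tumour, adjacent lung, AT2 KO and AT2 WT. The Med12 to Med12l ratios of the tumours, 7.72 to 9.42, lie above those of adjacent lung, 4.79 to 5.95, and the AT2 groups overlap for every pair.

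The second comparison, AT2 KO against AT2 WT cells, called no Mediator gene. Of the 31 members tested (Med10 and Med12l did not pass the filter on low counts) 0 rose and 0 fell, as did 0% of all 14053 genes tested by edgeR. At an unadjusted p of 0.05, 1 member was called (3.23%), against 347 genes or 2.47% of all. DESeq2 called 1 gene over the table and limma-voom 0, none of them a member. The median member had a log2 fold change of −0.01, like the −0.01 over all genes, with 15 members positive and 16 negative. For 30 of the 31 members the 95% interval lay within −1 and 1, so a 2-fold change in either direction lies outside the interval of each of these. The exception was Med18, whose interval ran from −0.07 to 1.04.

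Med18 had 4.73, 4.67 and 4.76 CPM in AT2 KO cells and 2.82, 3.56 and 3.73 CPM in AT2 WT cells. The groups did not overlap, and the log2 fold change of 0.48 ± 0.25 did not pass (adjusted p = 0.984). Med28, a subunit between head and tail, had 25.8, 24.4 and 24.1 CPM in AT2 KO cells and 30.9, 33.1 and 29.1 CPM in AT2 WT cells, also without overlap (−0.33 ± 0.14, unadjusted p = 0.0431 and adjusted p = 0.984 by edgeR). These are 3.23% of members higher without overlap, against 4.19% of all genes, and 3.23% lower, against 4.11%.

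The other large differences in AT2 cells came with overlap and with WT 177 apart. Med21 had 8.30, 7.80 and 9.89 CPM in AT2 KO cells and 10.1, 16.3 and 8.32 CPM in AT2 WT cells (−0.42 ± 0.26). Med12 had 92.2, 87.8 and 86.7 CPM in AT2 KO cells and 79.2, 36.5 and 96.6 CPM in AT2 WT cells (0.33 ± 0.27), and without WT 177 its log2 fold change was 0.01. Med13l had 70.6, 64.9 and 70.3 CPM in AT2 KO cells and 55.8, 35.4 and 72.5 CPM in AT2 WT cells (0.33 ± 0.22). WT 177 was the highest AT2 library for Med21 and the lowest for the long Med12 and Med13l. The adjusted p was 0.984 for all 3.

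The remaining kinases and their partners lay close together in AT2 cells. Cdk8 had 115.5, 124.2 and 116.6 CPM in AT2 KO and 122.2, 108.7 and 113.3 CPM in AT2 WT cells (0.05 ± 0.13). Cdk19 had 57.5, 56.7 and 58.9 CPM in AT2 KO and 44.8, 61.7 and 59.1 CPM in AT2 WT cells (0.06 ± 0.15). Both overlapped. Med13 had 126.5, 113.1 and 131.8 CPM in AT2 KO and 100.6, 108.5 and 139.4 CPM in AT2 WT cells (0.09 ± 0.16). Med22, the largest positive difference in tumours, had 62.4, 60.4 and 60.8 CPM in AT2 KO and 69.4, 56.4 and 58.6 CPM in AT2 WT cells (−0.01 ± 0.14). Summed over all members, Mediator had 1201 to 1221 CPM in AT2 KO and 1076 to 1222 CPM in AT2 WT cells, and 1076 to 1328 CPM in tumours and 952 to 1177 CPM in adjacent lung.

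Med10, a middle subunit, had 0 counts in all 6 AT2 libraries, which allows up to 0.159 to 0.188 CPM per library (3 counts, counting error only). In lung it had 22.8, 29.1 and 26.4 CPM in tumours and 15.98, 27.2 and 18.1 CPM in adjacent lung. The long noncoding RNA Gm26819, on the opposite strand, shares 4168 of the 4491 exon bases of Med10 (chr13:69802395-69816104, plus strand, GRCm38). It is listed in the AT2 table, with 54 counts in all, and not in the lung table, so the tables rest on gene lists that differ at this place. Of the 8167 protein-coding genes of both tables with at least 20 CPM in lung, 36 were at 0 in all AT2 libraries, Med10 among them. The 0 is therefore given as listed, and no difference in Med10 between lung and AT2 cells was drawn from it. Exons are shared with another gene for 18 of the 33 members, and their counts carry that uncertainty. For Med7 the gene lists differ as well. It shares 609 exon bases with the long noncoding RNA 2310031A07Rik, on the opposite strand. That RNA is listed in the AT2 table, with 27 counts in all, and not in the lung table. Its part in the Med7 counts was not tested.

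The factors that Mediator works with were counted from 5 lists. The lung calls given for these lists are from the fit without the mouse as a replicate block. With that block more genes of the lists passed, as counted in the last section. A list in which none passed here is therefore not shown to have none with the block. In tumours against adjacent lung, 0 of 12 RNA polymerase II subunits passed, with a median log2 fold change of 0.32 after TMM scaling. The largest were Polr2f, a subunit shared by all nuclear polymerases, with 27.0, 152.3 and 28.4 CPM in tumours and 18.4, 66.9 and 24.4 CPM in adjacent lung (0.92 ± 0.79), and Polr2j, with 18.8, 73.7 and 26.3 CPM in tumours and 15.6, 37.4 and 15.5 CPM in adjacent lung (0.80 ± 0.60). Mouse 217 was high for both genes in both tissues. Of 31 general transcription factor genes none passed (median 0.17), with Taf2 of TFIID at 1.07 ± 0.33 (adjusted p = 0.0824) and Cdk7, the TFIIH kinase that phosphorylates the polymerase's tail, at 0.75 ± 0.29 (adjusted p = 0.158).

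Of 26 pause release and elongation factors none passed (median 0.47), with Ell3 at 1.44 ± 0.71 (adjusted p = 0.276) and Ccnt2, a cyclin of the pause release kinase, at 1.25 ± 0.32 (adjusted p = 0.0505). Ccnt2 had 84.8, 122.7 and 147.6 CPM in tumours and 59.6, 41.9 and 48.1 CPM in adjacent lung, without overlap. Of the 7 cohesin genes none passed (median 0.04), with Stag2 at 0.61 ± 0.44 and Mau2 at 0.37 ± 0.42.

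Among 33 transcription factors and coactivators reported to bind Mediator, 4 rose (12.1%, against 2.86% of all genes tested) and 1 fell (3.03%, against 7.18%). Sox9, which marks distal lung progenitors, had 45.4, 67.7 and 125.2 CPM in tumours and 0.651, 0.669 and 1.277 CPM in adjacent lung (6.52 ± 0.58, adjusted p = 0.00592). The ETS factor Etv4 had 33.7, 74.99 and 89.1 CPM in tumours and 0.526, 1.298 and 1.06 CPM in adjacent lung (6.10 ± 0.59, adjusted p = 0.00592). Hnf4a, a nuclear receptor of liver and gut, rose by 4.05 ± 0.58 and the ETS factor Etv1 by 2.40 ± 0.58 on the log2 scale (adjusted p = 0.0100 and 0.0404). Gata1, a factor of red cell precursors and mast cells, had 0 counts in every tumour and 1.67, 1.54 and 0.399 CPM in adjacent lung, at least 80.8-fold lower against a floor of 3 counts over the tumours. The other 28 did not pass. This list was chosen with earlier results of these data known. Its shares are therefore a description and no test of Mediator-binding factors as a kind.

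In AT2 KO against AT2 WT cells none of the tested members of the 5 lists passed. The largest differences were −0.41 for Polr2d and 0.31 for Polr2a, −0.37 for Mnat1 and −0.34 for Gtf2f1, −0.76 for Eaf2 and −0.33 for Larp7, −0.26 for Smc1a and 0.23 for Nipbl, and 0.43 for Ppara and 0.36 for Ppargc1a, each with an adjusted p of 0.984. The median log2 fold changes of the lists ran from −0.15 for the polymerase subunits to 0.06 for the activators.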

How the data were processed

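Poly-A RNA was sequenced in 12 libraries, 3 per group, prepared with a NEBNext Ultra kit per the labels' protocols, a kit that does not mark strand. The authors deposited whole-number counts per gene, not normalised, in a table for lung and another for AT2 cells. The submitters' processing notes name HISAT2, DESeq2 1.28.1, StringTie 1.3.3b, Trimmomatic 0.39 and FastQC, and the build GRCm38 (mm10). The sources used here do not give the counting step or the annotation release. Symbols, coordinates and exon lengths came from GENCODE M21, and promoters from RefSeq. The tables share 54186 identifiers. Identifiers without a name were 1035 in lung, with 0.0388% of counts, and 37 in AT2, with 0.00383%; they stayed in the library totals.

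Each table was fitted on its own in R 4.3.3 with edgeR 4.0.16 (filter on low counts, TMM, quasi-likelihood test, group as the only term), adjusted by Benjamini-Hochberg over all genes tested at a threshold of 0.05; errors of log2 fold changes are standard errors. The code was tested on simulated data, where it recovered the size of known changes. In data drawn with the spread of the lung libraries these did not reach the adjusted threshold. Few genes were changed there, whereas 2007 passed in the real lung fit, so the simulation does not measure the power of that fit. A lung gene that did not pass is not shown to be unchanged. Alternatives were DESeq2 size factors, library totals, DESeq2 1.42.0, limma-voom (limma 3.58.1), no filter, a loess offset for exon length, the mouse as a block, its combination with that offset, the lung without mouse 217, and each library left out. Paralogue ratios were tested by exact permutation. Log2 ratios within a mouse used 0.1 CPM added to each level. Floors are 3 counts and cover counting error only.

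Tumour and adjacent lung of 1 number came from the same animal, so the block is a true pairing by the labels. Their deviations from the group means correlated across genes at 0.273 (mouse 102), 0.459 (217) and 0.366 (224). Both libraries of mouse 217 shared a trend with exon length, and its part in these correlations was not tested. The labels state no paired fit, and the fit without the block is the one given unless stated. No 2 libraries of a group agreed within sampling noise (chi-square per degree of freedom at least 7.23). It was 7.23 to 10.8 between AT2 KO libraries and 45.9 to 94 between AT2 WT libraries, while the fit takes 1 spread per gene for both groups. AT2 mice are separate animals by number.

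Values by library are printed for Med23, members that passed, the kinase paralogues, the 4 largest fold changes that did not pass and the 4 highest and lowest by RPKM. Further members, the neighbours of Med12l and Ccnt2's values were added after values were seen. From each pathway list up to 4 genes that passed, or 2 if none did, are named. The members, gene lists, tests and marker lists were chosen with earlier results of these data known.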

Additional observations from a re-analysis of the deposited data

How the results depend on the processing

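The count of Mediator genes called in lung, 1 in the fit given, was 2 with DESeq2, the exon length offset, the replicate block and the block with that offset (Med12l and Med22 each time), and 0 with limma-voom, with no filter and without both libraries of mouse 217. Leaving out 1 library gave 0 to 1. Genes called over the whole lung table were 2007, against 3718 with DESeq2, 847 without mouse 217, 2980 with the replicate block and 598 to 1854 without 1 library. Pathway genes called in lung were 5, against 8 with DESeq2, 8 with the exon length offset, 12 with the replicate block, 14 with the block and offset, 2 without mouse 217 and 3 to 5 without 1 library. With library totals alone 17.6% of the lung calls were higher in tumours, against 571 of 2007. In AT2 cells 0 genes were called, against 1 with DESeq2 and 17 with no filter, and 0 to 1 without 1 library, while members and pathway genes called stayed at 0 in each of these. The AT2 ratio of Cdk8 to Cdk19 differed by −0.15 to 0.16 (log2) without 1 library, with values of 0.0011 without KO 191 and 0.16 without WT 176, and that of Med12 to Med12l by −1.53 to 0.19. The cause of these differences was not tested. The log2 fold change kept its sign under all alternatives for 18 of 33 members in lung and 13 of 31 in AT2 cells. With 3 libraries per group, the median standard error of a member was 0.38 in lung and 0.19 in AT2 cells, which limits what could be called, and the Med12l counts were the lowest of the tested members in lung.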
